A study of Mus musculus with 384 samples.

Results

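The genes described here are 46 genes of DNA replication and mitosis out of 49585 genes counted in single mouse mammary epithelial cells. They were chosen by name from what their products do in the cell cycle, by a rule that uses no measured value. Earlier results of these data were known when they were chosen. Of the 46 genes, 20 serve DNA replication and entry into S phase and 24 serve mitosis. Ccnd1 and Stmn1 belong to neither set and were kept apart. All 46 were found in the count table, and 36 of them reached a mean of 5 CPM (counts of a gene scaled to the total of its group) over the groups of cells.

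A cell that divides first copies its DNA and then separates the copies. The MCM helicase is loaded onto origins in G1 by Cdc6 and Cdt1 and opens the DNA in S phase, while enzymes such as ribonucleotide reductase supply the nucleotides. Cyclins with Cdk1 then start mitosis, motor proteins build the spindle, and the ubiquitin ligase that Cdc20 activates ends it. Genes of the first kind are read from late G1 and S, those of the other kind mainly in G2 and M, and cells that have left the cycle express few of either.

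The cells came from the mammary gland of mice labelled K8rtta/TetO-DTA/K5CreER/Rosa-Tomato on a mixed background, and this strain label stands on all samples, those called Wild-type included. In such mice the keratin 8 promoter drives the doxycycline-dependent activator rtTA in luminal cells, TetO-DTA then makes diphtheria toxin A there, and the keratin 5 promoter drives CreER, which can switch on the Tomato mark in basal cells. Ablated mice received 0.2 mg doxycycline into the ducts and were taken 1 week later, and the labels give no injection for the Wild-type samples, here called WT. Cells that were Tomato-positive and negative for CD45, CD31 and CD140a were sorted by CD29 and EpCAM into 384 wells and read by Smart-seq2, a full-length method without molecular identifiers. The 5 groups were WT basal (44 kept cells) and WT luminal (43), and from ablated glands basal (71), hybrid (85) and luminal (76), the hybrid gate holding cells with both basal and luminal traits. The labels name no animal for any cell, so each group counts as 1 sample and no test between groups was possible. Ablation, injection, doxycycline and animal cannot be told apart. The groups lie in blocks of adjoining lines of 1 plate, so plate position and group cannot be told apart either. Which cells those of the luminal and hybrid gates descend from was not tested, so origin cannot be told apart from ablation.

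The gate labels were checked against marker genes. A median of 6 of 10 basal and 1 of 10 luminal marker genes was detected per WT basal cell, 0 and 7 per WT luminal cell, 8 and 1 per ablated basal cell, and 7 and 8 per ablated hybrid cell. Ablated luminal cells held a median of 8 luminal and 2 basal markers, and 31 of the 76 had at least 3 basal markers, which no WT luminal cell had. Every cell was thinned at random to 100000 reads, and detection meant at least 5 of them. Kept cells had 118310 to 3835005 reads in genes. Immune, endothelial and skin keratinocyte markers had summed levels of at most 121.5, 13.3 and 24.7 CPM in any group, and fibroblast markers 92.6 to 1954 CPM. Erythroid markers reached 795 CPM in hybrid cells, where at most 4 of the 5 genes were detected in a cell, and Alas2, Hba and Hbb genes had 0 reads in ablated basal cells.

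The mitosis genes separated the groups most plainly. Summed over the 24 genes their level was 20.5 CPM in WT basal cells, 17.9 CPM in WT luminal cells, 74.4 CPM in ablated basal cells, 658.5 CPM in ablated hybrid cells and 539.9 CPM in ablated luminal cells. The hybrid and luminal cells of ablated glands were thus far above the other 3 groups, and close to each other. Of the 24 genes, 15 had no read at all in WT basal cells, 14 in WT luminal cells and 9 in ablated basal cells, against 0 in the hybrid and luminal cells of ablated glands. No cell detected 22, 20 and 16 of the 24 genes in the former 3 groups.

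The replication genes differed less. Their 20 genes summed to 649.4 CPM in WT basal, 396.2 CPM in WT luminal, 478.3 CPM in ablated basal, 926.1 CPM in hybrid cells and 1134.1 CPM in the luminal cells of ablated glands. Replication reads exceeded mitosis reads 31.7-fold in WT basal, 22.2-fold in WT luminal and 6.43-fold in ablated basal cells, but only 1.41-fold in ablated hybrid and 2.10-fold in ablated luminal cells. The share of cells detecting a gene showed the same contrast. The median replication gene was detected in 0% of WT basal cells, 4.65% of WT luminal, 1.41% of ablated basal, 14.1% of ablated hybrid and 18.4% of ablated luminal cells.

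**Figure D1:**
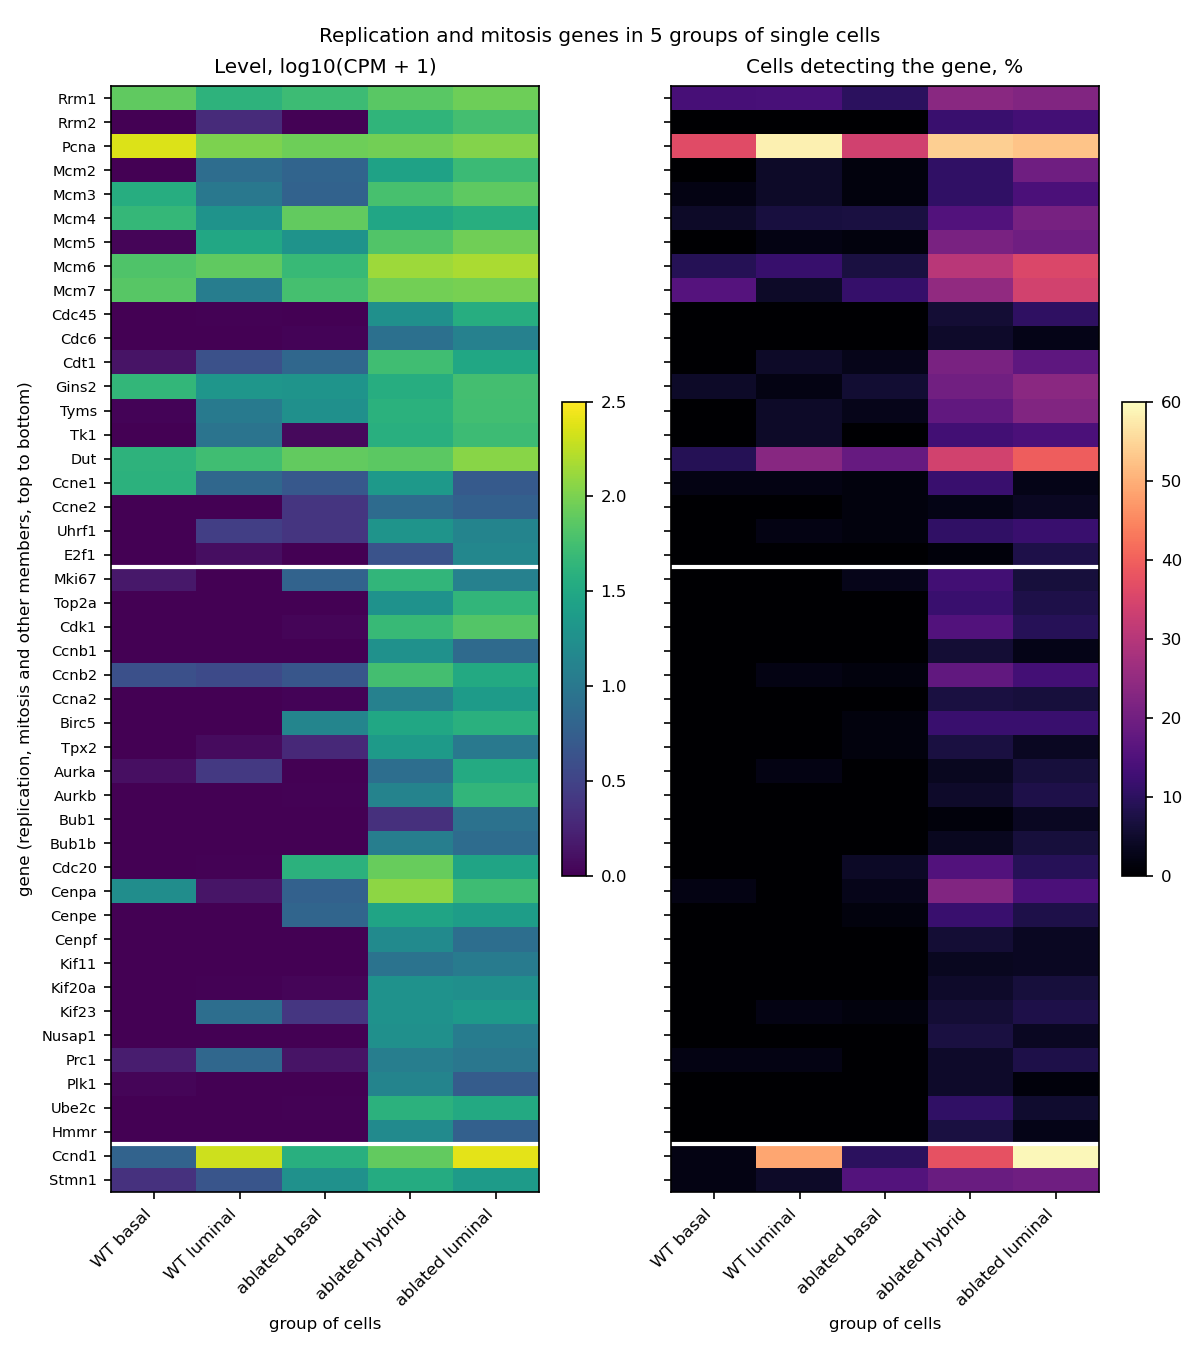
Level of each of the 46 genes as log10(CPM + 1) of summed reads (left) and percent of cells detecting it at 5 of 100000 thinned reads (right), in the 5 groups of single cells, with white lines between replication, mitosis and other genes. The mitosis block is dark in WT basal, WT luminal and ablated basal cells and lit in ablated hybrid and luminal cells, while replication genes such as Pcna and Mcm6 have reads in all 5 groups.

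Intervals given below for levels (exact Poisson) and shares (exact Clopper-Pearson) are 95% intervals that cover counting of reads or cells alone, and PCR reads are not independent molecules. Reads of 13 of the 46 genes cannot be told apart from those of a gene that overlaps their exons on the other strand, since the library kit does not mark strand. These are Ccna2, Cdc20, Kif20a, Nusap1, Prc1, Plk1, Ube2c, Mcm7, Cdc45, Gins2, Tk1, Ccne2 and Ccnd1. Pcna has a counted near copy, Pcna-ps2, with 6547 reads beside 41439 for Pcna, so the split between them is uncertain, while the copies of Ccnb1 and Ccnb2 had 34 and 116 reads beside 2233 and 8713.

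Promoters are shown for 6 of the genes with the highest levels, because the mitosis genes moved together across groups and cells and most of their promoters hold a short word, CHR, that most of the replication promoters lack. Windows of 300 bases, from 250 before to 50 after the start of the gene, came from RefSeq on GRCm38.p6, which matched 37 of the 46 genes, all but Ccna2, Tpx2, Aurkb, Kif20a, Mcm4, Gins2, Ccne2, Ccnd1 and Stmn1. Printed 5′ to 3′ on the strand of the gene, capitals mark the words searched on both strands, namely the cell cycle genes homology region (CHR, TTTGAA), the CCAAT box (CCAAT) and E2F words (TTTCCCGC, TTTGGCGC, TTTCGCGC and TTTGCCGC), or their reverse complements. Cenpa and Cdc20 are mitosis genes and the others replication genes, and for Mcm7 the window of its more upstream start is given.
Cenpa, chr5:30666636-30666935, plus strand: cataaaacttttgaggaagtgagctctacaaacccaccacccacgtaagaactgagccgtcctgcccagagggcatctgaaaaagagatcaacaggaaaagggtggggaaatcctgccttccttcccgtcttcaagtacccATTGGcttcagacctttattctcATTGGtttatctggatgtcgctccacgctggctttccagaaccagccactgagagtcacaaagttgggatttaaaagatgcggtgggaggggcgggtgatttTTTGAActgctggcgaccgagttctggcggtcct
Cdc20, chr4:118437294-118437593, minus strand: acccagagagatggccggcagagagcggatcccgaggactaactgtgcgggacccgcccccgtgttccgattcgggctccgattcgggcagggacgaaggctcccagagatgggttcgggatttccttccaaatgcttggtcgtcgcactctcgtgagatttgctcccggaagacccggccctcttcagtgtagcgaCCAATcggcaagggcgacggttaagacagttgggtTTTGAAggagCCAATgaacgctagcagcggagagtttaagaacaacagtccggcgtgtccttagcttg
Mcm6, chr1:128359656-128359955, minus strand: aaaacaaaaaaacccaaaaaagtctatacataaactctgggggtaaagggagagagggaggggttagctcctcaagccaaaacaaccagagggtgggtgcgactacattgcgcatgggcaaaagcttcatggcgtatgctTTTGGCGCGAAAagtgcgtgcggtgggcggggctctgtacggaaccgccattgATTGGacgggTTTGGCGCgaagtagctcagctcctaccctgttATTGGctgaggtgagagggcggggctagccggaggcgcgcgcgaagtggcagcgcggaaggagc
Mcm7, chr5:138171834-138172133, minus strand: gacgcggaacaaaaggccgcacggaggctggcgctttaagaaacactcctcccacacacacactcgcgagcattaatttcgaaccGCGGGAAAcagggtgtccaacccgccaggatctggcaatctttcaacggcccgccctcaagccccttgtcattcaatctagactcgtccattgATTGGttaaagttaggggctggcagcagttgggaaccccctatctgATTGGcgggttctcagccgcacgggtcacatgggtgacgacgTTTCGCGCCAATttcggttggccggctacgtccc
Pcna, chr2:132253131-132253430, minus strand: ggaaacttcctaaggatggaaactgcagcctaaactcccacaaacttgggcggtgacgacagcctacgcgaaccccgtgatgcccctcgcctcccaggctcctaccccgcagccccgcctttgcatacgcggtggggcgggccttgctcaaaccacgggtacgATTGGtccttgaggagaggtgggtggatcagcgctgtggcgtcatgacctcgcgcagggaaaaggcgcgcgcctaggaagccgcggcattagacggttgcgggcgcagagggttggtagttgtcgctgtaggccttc
Rrm1, chr7:102441445-102441744, plus strand: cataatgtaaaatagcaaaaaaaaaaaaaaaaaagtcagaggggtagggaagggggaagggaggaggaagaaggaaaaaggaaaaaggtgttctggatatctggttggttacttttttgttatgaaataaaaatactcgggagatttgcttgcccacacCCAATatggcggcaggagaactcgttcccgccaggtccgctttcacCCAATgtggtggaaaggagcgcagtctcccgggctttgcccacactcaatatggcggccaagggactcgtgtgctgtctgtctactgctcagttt

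The CHR word lay in the promoter of 15 of 20 matched mitosis genes (75%) and of 2 of 17 matched replication genes (11.8%), against 17.9% of all 32851 RefSeq windows of the same length. A CCAAT box lay in 18 of 20 mitosis promoters (90%), 10 of 17 replication promoters (58.8%) and 37.4% of all windows. Both words together were found in 15 of 20, in 2 of 17 and in 6.95% of all. The E2F words went the other way, with 1 of 20 mitosis promoters (5%, Cdk1), 7 of 17 replication promoters (41.2%) and 2.26% of all windows. Genes with 2 windows counted once. Matches of 2 different kinds of element (CHR, CCAAT box or E2F) overlapped in 1 of the 40 windows, the Mcm7 window printed above. Overlaps among the E2F words, as in the Mcm6 window, were not counted there. CHR and CCAAT elements are known as sites of the DREAM and NF-Y complexes in genes of G2 and M, and E2F elements of genes of G1 and S. Here they describe the sequences and are not shown to be sites.

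Among the mitotic kinases and cyclins, Cdk1, the kinase that starts mitosis, had no read in WT basal or WT luminal cells. Its level was 0.0848 CPM in ablated basal, 47.6 CPM (46.3 to 49) in ablated hybrid and 67.3 CPM (65.5 to 69.0) in ablated luminal cells. The latter 2 groups stood apart from the former 3 by more than the counting error of reads, which does not cover the number of cells. Cdk1 was detected in 13 of 85 hybrid cells (15.3%, 8.40 to 24.7) and 7 of 76 ablated luminal cells (9.21%, 3.78 to 18.1), and in none of the others, which allows a share of up to 6.98% in the 43 WT luminal cells. The interval of the ablated luminal share reaches below that limit, so the shares do not set these luminal groups apart. Detecting cells held a median of 180.3 CPM in hybrid and 572.7 CPM in ablated luminal cells.

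Ccnb2, a B-type cyclin that binds Cdk1, was present at 3.05 CPM in WT basal, 2.66 CPM in WT luminal and 3.71 CPM in ablated basal cells, with at most 1 detecting cell in each. In ablated hybrid cells it stood at 56 CPM with 15 detecting cells and in ablated luminal cells at 32 CPM with 10. Hybrid cells were therefore highest in Ccnb2 and ablated luminal cells highest in Cdk1. Ccnb1 followed Ccnb2, with 0 reads in both WT groups and in ablated basal cells, 17.6 CPM in hybrid and 6.27 CPM in ablated luminal cells. Ccna2, the A-type cyclin of S and G2, and the kinases Aurka and Aurkb had the opposite order. Aurkb, the enzymatic subunit of the chromosomal passenger complex, had 12.2 CPM in hybrid and 43.6 CPM in ablated luminal cells, Aurka 7.07 and 32.9 CPM, and Ccna2 11.6 and 22.6 CPM. Plk1, which acts from mitotic entry to cytokinesis, had 12.6 CPM in hybrid cells, whereas 96.8% of its 4.36 CPM in ablated luminal cells came from 1 cell.

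Mki67, the proliferation antigen that coats mitotic chromosomes, had 0.433 CPM in WT basal cells, no read in WT luminal cells and 5.27 CPM in ablated basal cells. It reached 43.2 CPM (41.9 to 44.6) in hybrid cells and 11.4 CPM (10.7 to 12.2) in ablated luminal cells. Hybrid cells were the highest group, with 11 of 85 cells (12.9%) detecting Mki67 against 5 of 76 (6.58%) and 2 of 71 ablated basal cells (2.82%). Top2a, the topoisomerase that untangles replicated chromosomes, had no read in WT basal or ablated basal cells and 0.0141 CPM in WT luminal cells. Its level was 17.9 CPM in hybrid cells and 43.7 CPM in ablated luminal cells, the reverse of Mki67, although more hybrid cells (10 against 6) detected it. Per kilobase of exon, Cdk1 (9.66 and 13.6 CPM per kb in hybrid and ablated luminal cells) stood above Mki67 (4.30 and 1.14) and Top2a (1.99 and 4.85).

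Of the genes of the spindle checkpoint and the mitotic ubiquitin ligase, Cdc20 was the highest. Cdc20, the activator of the anaphase-promoting complex, had 0 reads in WT basal cells, 0.0281 CPM in WT luminal, 39 CPM in ablated basal, 81.5 CPM in hybrid and 28.2 CPM in ablated luminal cells. Its 39 CPM in ablated basal cells came from 3 of 71 cells, 1 of which held 59.5% of the reads, while 13 of 85 hybrid cells detected it. Ube2c, the ubiquitin-conjugating enzyme of that complex, had 0 reads in both WT groups, 0.0339 CPM in ablated basal, 39.8 CPM in hybrid and 32 CPM in ablated luminal cells. It was detected in 9 of 85 hybrid and 4 of 76 ablated luminal cells, and in no other cell. The checkpoint kinases were low throughout, with Bub1 at 1.20 and 7.74 CPM and Bub1b at 10.8 and 6.69 CPM in hybrid and ablated luminal cells and both at 0 reads in the other 3 groups.

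Cenpa, the histone variant that marks centromeres, was the mitosis gene with the highest level. It had 16 CPM in WT basal cells, of which 99.7% came from 1 cell, 0.380 CPM in WT luminal, 5.04 CPM in ablated basal, 119.1 CPM (117 to 121) in hybrid and 51.6 CPM in ablated luminal cells. Hybrid cells were highest and 19 of 85 of them detected it (22.4%, 14 to 32.7), against 11 of 76 ablated luminal cells (14.5%, 7.45 to 24.4), intervals that overlap. Birc5, survivin, a subunit of the passenger complex, had 1 read in each WT group. It stood at 12.7 CPM in ablated basal cells, 99.5% of it from 1 cell, at 30.1 CPM in hybrid and at 38 CPM in ablated luminal cells. The kinetochore proteins Cenpe and Cenpf had 27.7 and 14.8 CPM in hybrid and 23.7 and 7.08 CPM in ablated luminal cells, with 0 reads in both WT groups.

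The spindle genes were all low. Tpx2, which activates Aurka on the spindle, had 0.0217, 0.197 and 0.950 CPM in WT basal, WT luminal and ablated basal cells, 21.9 CPM in hybrid and 9.18 CPM in ablated luminal cells. Kif23, a motor of the central spindle, had 0 reads in WT basal cells, 7.09 CPM in WT luminal cells that all came from 1 cell (100%), 1.48 CPM in ablated basal, 17.9 CPM in hybrid and 21.6 CPM in ablated luminal cells. Kif11, Kif20a, Nusap1 and Hmmr had at most 5 reads in each of WT basal, WT luminal and ablated basal cells together with 4.82 to 17.8 CPM in hybrid and ablated luminal cells. Prc1, which bundles the midzone microtubules, differed least, with 5.87 CPM in WT luminal cells (97.1% from 1 cell) beside 10.6 CPM in hybrid and 8.77 CPM in ablated luminal cells.

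Among the replication genes, the helicase subunits had reads in every group. Mcm6 stood at 63.5 CPM in WT basal, 76.6 CPM in WT luminal, 47.9 CPM in ablated basal, 135.8 CPM in hybrid and 151.9 CPM in ablated luminal cells. In WT luminal cells 1 cell held 74.6% of the reads. Mcm6 was detected in 4 of 44 WT basal, 5 of 43 WT luminal and 5 of 71 ablated basal cells, but in 26 of 85 hybrid (30.6%, 21.1 to 41.5) and 27 of 76 ablated luminal cells (35.5%, 24.9 to 47.3). Mcm7 had 69.3, 10.4, 57.5, 92.3 and 95.4 CPM in the same order of groups, so that WT luminal cells alone stood low. Mcm4 was highest in ablated basal cells, at 78.5 CPM from 5 detecting cells, against 29.2 CPM from 13 hybrid and 36.2 CPM from 16 ablated luminal cells.

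Mcm2, Mcm3 and Mcm5 had 0.0217, 35 and 0.0866 CPM in WT basal cells, the 35 CPM of Mcm3 resting to 99.1% on 1 cell. In ablated luminal cells they had 49.8, 74.4 and 89.5 CPM. Cdc45, the helicase cofactor loaded at the start of S phase, had at most 0.0281 CPM in WT luminal, WT basal and ablated basal cells, 17.1 CPM in hybrid and 35.3 CPM in ablated luminal cells. Cdc6 had 7.44 and 11.5 CPM in the latter 2 groups and at most 4 reads in each of the others. The licensing factor Cdt1 was highest in hybrid cells at 53.4 CPM, with 30.1 CPM in ablated luminal and 0.368 to 5.87 CPM in the other groups. The GINS subunit Gins2 had 44.6 CPM in WT basal cells from 2 cells, and 55 CPM in ablated luminal cells from 18.

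For the nucleotide supply, Rrm1, the large subunit of ribonucleotide reductase, had 76.5 CPM in WT basal, 40.3 CPM in WT luminal, 50.3 CPM in ablated basal, 71.9 CPM in hybrid and 88.7 CPM in ablated luminal cells. WT luminal cells were lowest and ablated luminal cells highest. The S-phase subunit Rrm2 was unlike it, with 0.0217, 1.01 and 0.0339 CPM in WT basal, WT luminal and ablated basal cells, 42.1 CPM in hybrid and 55.9 CPM in ablated luminal cells. No cell of the former 3 groups detected Rrm2, and 10 cells of each of the latter did. Dut, which removes dUTP, had 40.4, 53.4, 78.3, 73.9 and 112.7 CPM across the groups in the same order, and detecting cells made up 9.09%, 23.3%, 18.3%, 34.1% and 39.5%. Tyms and Tk1, which make and salvage thymidylate, had 54.4 and 51 CPM in ablated luminal and 38.5 and 36.8 CPM in hybrid cells, beside 9.41 and 8.22 CPM in WT luminal cells.

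Pcna, the sliding clamp of the polymerases that also serves DNA repair, was the exception. It was highest in WT basal cells at 234.3 CPM (230 to 239) and stood at 101.6 CPM in WT luminal, 88.6 CPM in ablated basal, 92.1 CPM in hybrid and 107.4 CPM in ablated luminal cells. The share of cells detecting it did not follow the level, at 36.4% (22.4 to 52.2), 58.1% (42.1 to 73), 33.8% (23.0 to 46), 54.1% (43 to 65) and 52.6% (40.8 to 64.2). Per kilobase of exon its level in ablated luminal cells, 44.8 CPM per kb, lay between those of Dut (46.8) and Mcm6 (32.6). Uhrf1, which carries DNA methylation over to new strands, had 0.0217, 1.90 and 1.46 CPM in WT basal, WT luminal and ablated basal cells and 18.5 and 12.5 CPM in hybrid and ablated luminal cells.

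The regulators of the step from G1 to S were low. Ccne1, the cyclin that binds Cdk2 there, had 39.8 CPM in WT basal cells, 99.9% of it from 1 cell, and 5.81, 3.87, 21.8 and 4.12 CPM in WT luminal, ablated basal, hybrid and ablated luminal cells. Hybrid cells were the only group in which more than 2 cells detected it, with 10 of 85. E2f1, a transcription factor of S-phase genes, had at most 0.225 CPM in WT luminal, WT basal and ablated basal cells, 3.31 CPM in hybrid and 13.2 CPM in ablated luminal cells, where 6 of 76 cells detected it. Ccne2 reached 6.47 CPM in hybrid and 4.88 CPM in ablated luminal cells.

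Ccnd1, the D-type cyclin that couples growth signals to the cycle, followed the luminal gates and not the mitosis genes. It had 5.29 CPM in WT basal, 201.4 CPM in WT luminal, 36.5 CPM in ablated basal, 79.1 CPM in hybrid and 249.7 CPM in ablated luminal cells. Both luminal groups were high, and 21 of 43 WT luminal (48.8%, 33.3 to 64.5) and 45 of 76 ablated luminal cells (59.2%, 47.3 to 70.4) detected it, against 1 of 44 WT basal, 7 of 71 ablated basal and 32 of 85 hybrid cells. Stmn1, a microtubule-destabilising protein, had 1.26 CPM in WT basal and 3.60 CPM in WT luminal cells, and 17.3, 33.9 and 22.4 CPM in ablated basal, hybrid and ablated luminal cells. In ablated basal cells 15.5% detected Stmn1, while no mitosis gene passed 4.22% there.

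Per cell the genes came together. A cell was said to hold the mitosis set with at least 6 of its 24 genes detected, and the replication set with at least 5 of its 20. No cell of 44 WT basal, 43 WT luminal and 71 ablated basal cells held the mitosis set, which allows shares of up to 6.82%, 6.98% and 4.23%. In ablated hybrid cells 11 of 85 held it (12.9%, 6.64 to 22) and in ablated luminal cells 6 of 76 (7.89%, 2.95 to 16.4), so these 2 groups overlapped within the counting of cells. The replication set was held by 0 WT basal and 0 WT luminal cells, 1 ablated basal cell (1.41%), 16 hybrid cells (18.8%, 11.2 to 28.8) and 18 ablated luminal cells (23.7%, 14.7 to 34.8). In WT cells the highest numbers were 1 mitosis and 4 replication genes in a cell.

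Few cells lay near the minimum for the mitosis set, as no hybrid cell had 5 or 6 mitosis genes detected and 4 ablated luminal cells did. For the replication set, 13 hybrid and 10 ablated luminal cells lay at 4 or 5 genes, so that set is a range and not a class of cells. An ablated luminal cell with neither set held 3058 CPM of mitosis reads. Altogether 42 of 44 WT basal, 39 of 43 WT luminal and 61 of 71 ablated basal cells detected no mitosis gene, against 41 of 85 hybrid and 45 of 76 ablated luminal cells.

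**Figure D2:**
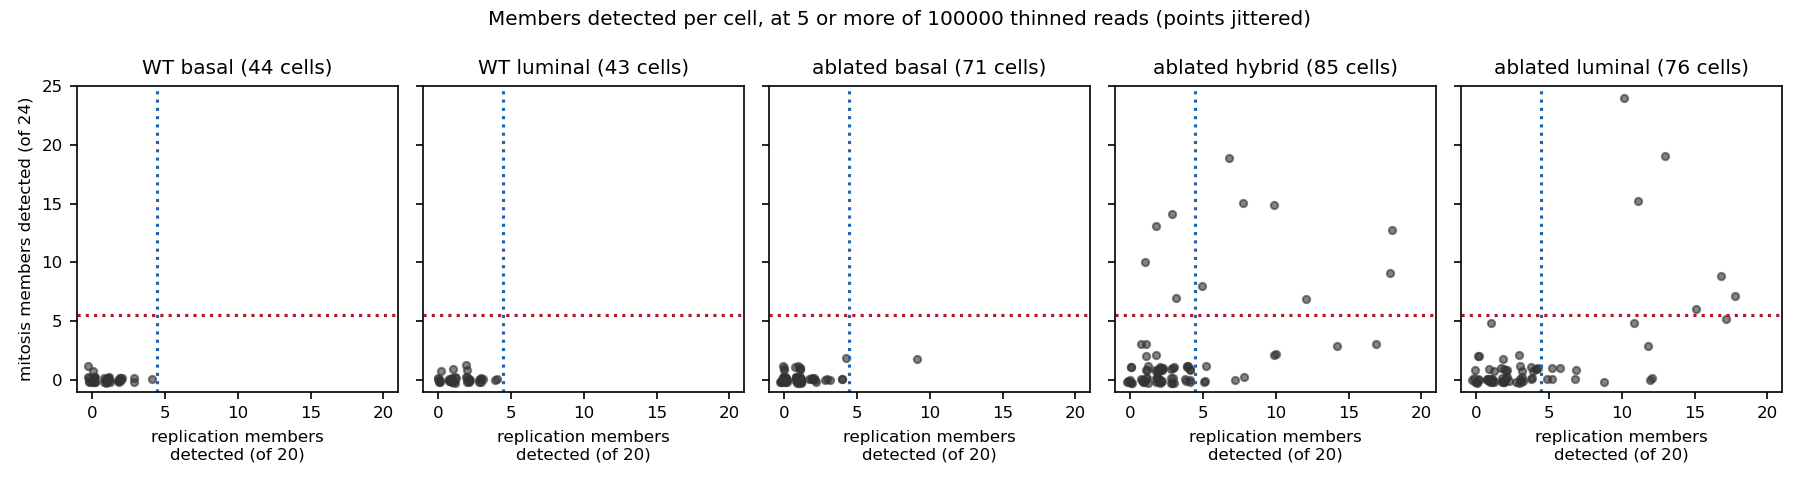
Each point is 1 cell, placed by the number of replication genes (x axis, of 20) and mitosis genes (y axis, of 24) detected at 5 of 100000 thinned reads, with points jittered and dotted lines at the minimum for each set. WT basal, WT luminal and ablated basal cells lie near the origin except 1 ablated basal cell with 9 replication genes, while hybrid and ablated luminal cells spread along both axes.

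How the sets combined differed in number between the hybrid and luminal cells of ablated glands. Both sets were held by 7 hybrid and 6 luminal cells, the replication set alone by 9 and 12, and the mitosis set alone by 4 hybrid cells and 0 luminal cells, which allows up to 3.95% of the 76. The interval of the hybrid share for mitosis alone, 4.71% (1.30 to 11.6), overlaps that of the luminal share, 0% (0 to 4.74). The 4 hybrid cells with mitosis alone had 2175 to 3957 CPM of mitosis reads and 173.3 to 470.6 CPM of replication reads. In them Ccnb2, Cdc20, Cenpa and Cenpe were detected in 4 of 4 and Mcm2, Mcm3, Mcm5, Mcm6, Mcm7, Rrm2 and Tk1 in none. The cells were chosen by genes of these same sets, so these levels and counts describe how the class is made up.

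Mki67 marked the cells with both sets more than the others. It was detected in 7 of 7 hybrid and 4 of 6 luminal cells with both sets, in 2 of 4 hybrid cells with mitosis alone, and in 0 of 9 hybrid and 0 of 12 luminal cells with replication alone. Those counts use a gene of the mitosis set and describe how the sets are made up. Ccnd1, which belongs to neither set, was detected in 6 of 6 luminal cells with the mitosis set (302.6 to 1181 CPM) and in 6 of 11 hybrid cells with it (0 to 366.5 CPM). Stmn1, also outside the sets, was detected in 10 of these 11 hybrid and 6 of these 6 luminal cells, and in 4 of 65 and 4 of 58 cells that held neither set.

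**Figure D3:**
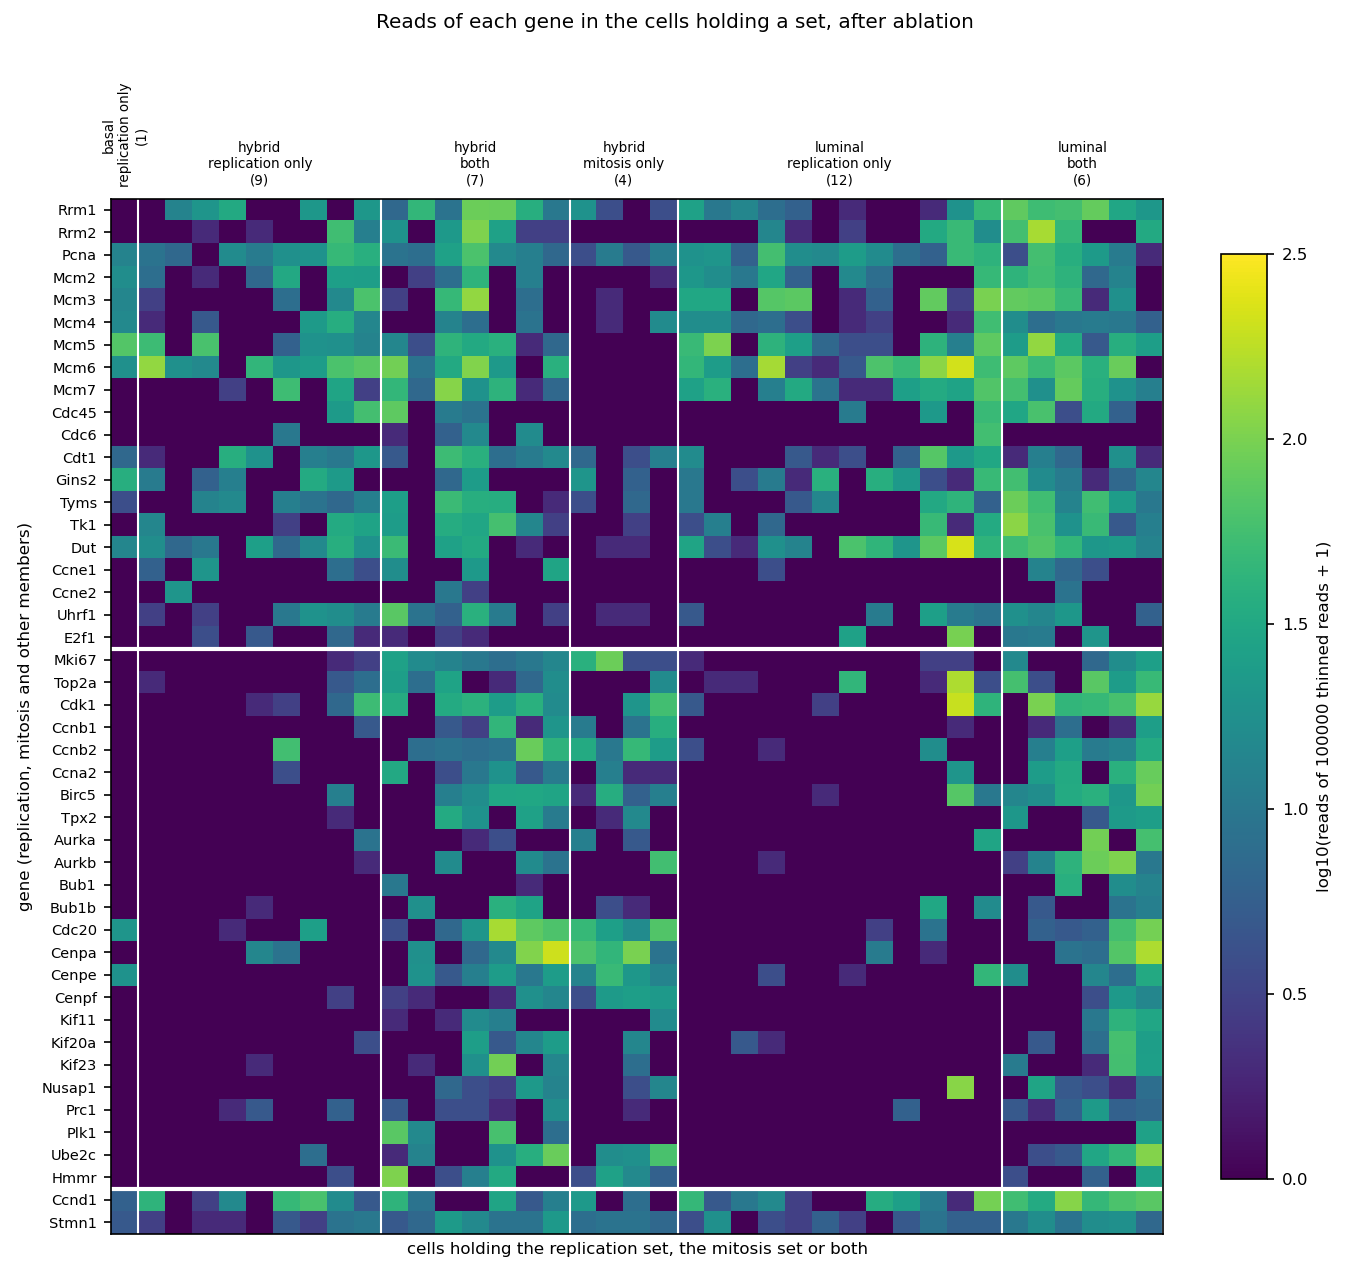
Reads of each gene (rows, log10 of reads of 100000 thinned reads + 1) in the 39 cells that held the replication set, the mitosis set or both (columns), grouped by gate and set. The 4 hybrid cells with the mitosis set alone are lit in the mitosis block and nearly dark in the MCM rows. The 12 luminal cells with the replication set alone vary there, from cells lit in most MCM rows to cells dark in most. Cells were placed in these classes by the genes shown.

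Most reads of the genes came from these few cells. They were chosen by detection of the same genes, so a high share of those reads follows in part from that choice. In the hybrid group the 20 cells with either set held 30.6% of all reads in genes, but 89% of the mitosis and 71.7% of the replication reads. In the ablated luminal group the 18 cells with either set held 24.6% of all reads, 82.6% of the mitosis and 75.4% of the replication reads. The remaining 65 hybrid cells had a median of 33 CPM of mitosis reads and the remaining 58 luminal cells 13.5 CPM.

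Genes of the same processes that were not used to choose the cells were also counted in them. They were read in the same cells, which had more genes detected in all, so they are no independent check. Of 40 other mitosis genes, a median of 13 (1 to 21) was detected in the 11 hybrid cells with the mitosis set and 17.5 (11 to 28) in the 6 luminal ones. In cells that held neither set the medians were 1 and 1, with at most 4 and 5. The ranges of the luminal cells did not overlap, and those of the hybrid cells overlapped through 1 cell with 1 other mitosis gene. Of 30 other replication genes, cells with both sets detected a median of 12 (hybrid) and 16 (luminal), and cells with neither set 2 and 2. Examples are Cdca3 and Pbk, with no read in either WT group, at 45.9 and 42 CPM in hybrid and 51.8 and 51.9 CPM in ablated luminal cells.

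Cells with either set also had more genes detected, which was measured on thinned reads. Their median was 5423 genes against 4352 for the other hybrid cells, and 4974 against 4219 for the other luminal cells. Their median depth was 1461300 against 1033159 reads in the hybrid group. Wells that took up 2 cells were not searched for, and their part in these counts was not tested. Without the tenth of cells of each group with most genes after thinning, an alternative chosen after seeing the data, the mitosis set was held by 7.89% of hybrid and 4.41% of luminal cells. Immune, endothelial and erythroid markers reached at most 1 gene in any cell with a set, and erythroid markers 0 in the 20 hybrid ones. By plate line, 4 of 17, 4 of 24, 9 of 23 and 3 of 21 hybrid cells had a set in lines M, N, O and P. Of the luminal cells, 5 of 9, 3 of 20, 8 of 23 and 2 of 20 had a set in lines I to L, and 0 of 4 in M. The spread was uneven, as 6 hybrid cells with the mitosis set lay in line O against 1, 3 and 1 in M, N and P.

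Cells with a set lay near the other cells of their gate in Acta2, but Krt14 varied widely among the luminal ones. The 20 hybrid ones had 1624 to 29035 CPM of Acta2, the smooth muscle actin of basal cells (median 7868 CPM), and a median of 2755 CPM of the luminal keratin Krt18. The 18 luminal ones had 4.80 to 929.3 CPM of Acta2 and a median of 3133 CPM of Krt18. Their Acta2 ranges did not overlap, nor were the medians far from those of cells with neither set, at 5159 CPM in hybrid and 18.4 CPM in luminal cells. Krt14, the basal keratin, ranged from 19.5 to 15842 CPM in the 6 luminal cells with the mitosis set, where 4 of 6 had 831.9 CPM or more and 2 had 30.6 CPM or less. In WT luminal cells Krt14 was at most 770.2 CPM. The ablated basal cell with the replication set alone had 37363 CPM of Acta2, the highest of the 71 cells of its gate, and 9 replication genes detected.

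Ratios between groups were taken as log2 of (CPM + 10), which understates the change of low genes, and a gene was past the fold at a 2-fold ratio. Ablated luminal against WT luminal cells compares the luminal gate with and without ablation. Cells of that gate may differ in origin as well, which was not tested. Of the 76 ablated ones 31 had at least 3 basal markers, against 0 WT luminal cells. Of the 24 mitosis genes 14 were past the fold and higher and of the 20 replication genes 12, with 0 lower, where 15.3% of 11106 measured genes were higher and 6.61% lower. Over all 46 genes 27 were higher. The median log2 ratio was 1.25 for the mitosis and 1.16 for the replication genes, beside 0.21 for all measured genes. Many had no read in WT luminal cells, and with those set at a floor of 3 reads over the group the medians were 7.70 and 2.68 (log2). By that floor Cdk1 was 1594-fold higher in reads and Top2a 1035-fold, and Rrm2, above it, 55.2-fold. These folds follow the depth of reads and do not cover the number of cells. Cdk1 was detected in 7 of 76 ablated luminal cells, and its absence from 43 WT luminal cells still allows a share of up to 6.98%.

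Ablated hybrid against ablated basal cells shares no group with that comparison and gave similar counts. Of the mitosis genes 18 of 24 were past the fold and higher and of the replication genes 10 of 20, with 1 lower, Mcm4 (log2 ratio −1.18). Among measured genes 16% were higher and 8.87% lower. The median log2 ratios were 1.30 and 1.02 beside 0.14, or 7.35 and 2.23 with the floor. Cenpa was 23.7-fold and Mki67 8.20-fold higher in hybrid cells, while Birc5 and Cdc20, which 1 and 3 ablated basal cells detected, were 2.37-fold and 2.09-fold higher.

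Since a few cells hold most reads, the ratios were also taken after dropping, gene by gene, the cell that held most of its reads in a group. Then 28 of 46 genes were higher in ablated luminal against WT luminal cells, 23 of them among the 27. In hybrid against ablated basal cells 27 were higher, 23 of them among the 28, and Mcm4 was no longer lower. How many of all measured genes passed the fold after this drop was not counted, so these numbers have no background beside them. TMM scaling moved the median of all genes from 0.21 to 0.01 in the former comparison and from 0.14 to 0.01 in the latter. Under it the ratio of Pcna changed sign, from 0.07 to −0.20 and from 0.05 to −0.11, Gins2 (now 0.90) and Nusap1 (now 0.93) no longer passed the fold in luminal cells, and Bub1b (now 0.98) no longer passed it in hybrid cells. The ratio of Ccnd1 in luminal cells, 0.30, was −0.03 under median-of-ratios scaling.

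**Figure D4:**
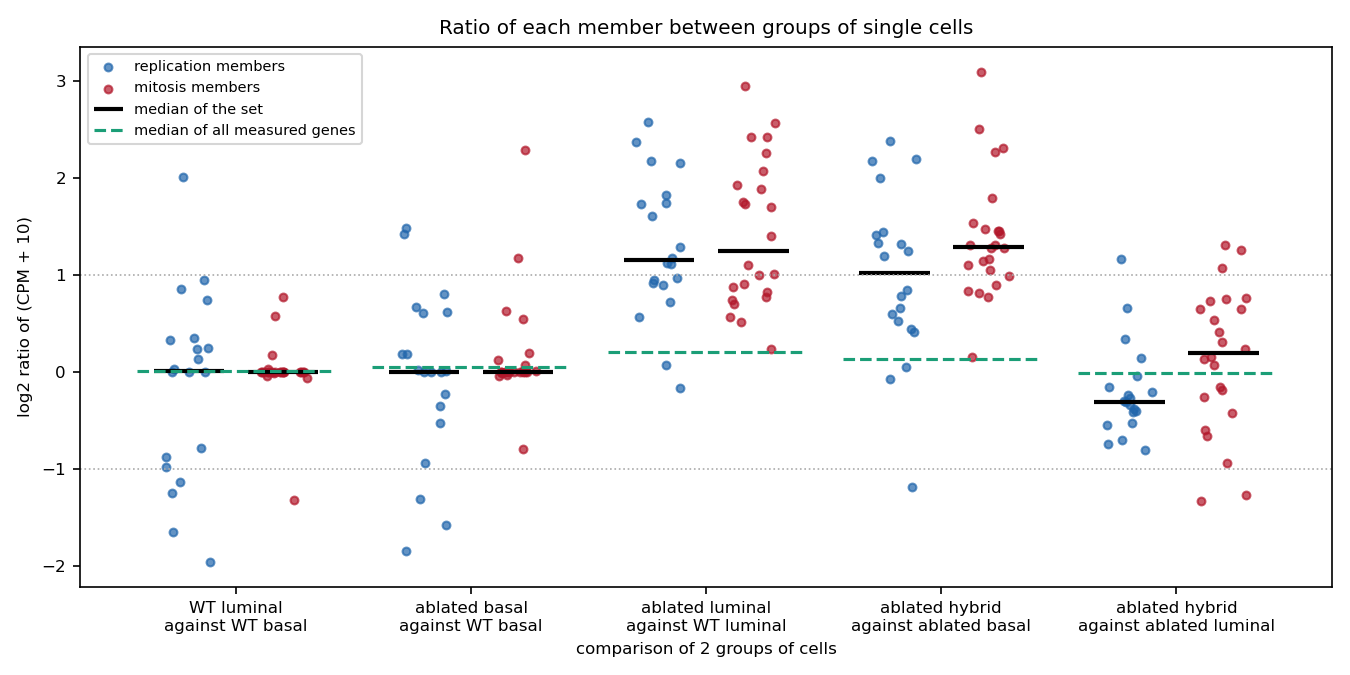
Log2 ratio of (CPM + 10) of each replication gene (blue) and mitosis gene (red) in the 5 comparisons of groups, with the median of each set (black bars), the median of 11106 measured genes (green dashes) and dotted lines at a 2-fold ratio. Both sets centre near 0 between WT groups and between basal groups, and near 1 in ablated luminal against WT luminal and hybrid against ablated basal cells.

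The basal comparison was different. Ablated basal against WT basal cells gave medians of 0.00 for the mitosis and 0.01 for the replication genes beside 0.05 for all, with 6 of 46 genes higher and 3 lower past the fold, where 19.8% and 14.9% of measured genes were. Of the 24 mitosis genes, 18 in WT basal and 12 in ablated basal cells had at most 3 reads, which holds that median near 0.00. With the floor the medians were 0.38 and 0.79 (log2), over the 14 and 17 genes above it in either group. The 2 mitosis genes higher were Cdc20 and Birc5, and the 3 lower genes, Pcna, Mcm3 and Ccne1, are replication genes, of which Mcm3 and Ccne1 rested on 1 WT basal cell. WT luminal against WT basal cells had medians of 0.00 and 0.02 beside 0.01, or 0.70 and 0.40 with the floor, over 8 and 17 genes. There 2 of 46 genes were higher, Ccnd1 (38.1-fold) and Mcm5, and 5 lower, where 22.3% and 21.3% of measured genes were. Mcm5 was detected in 1 of 43 WT luminal cells, and without the top cell of each group its log2 ratio went from 2.01 to 0.00. With the top cell of each gene dropped in the same way, 5 of 46 were higher and 1 lower in ablated against WT basal cells (3 and 1 of them as before), and 1 higher and 4 lower in WT luminal against WT basal cells (1 and 2 as before). The share of all measured genes past the fold was not counted after that drop.

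Between the hybrid and luminal cells of ablated glands the medians of the sets differed slightly. The median log2 ratio of hybrid against luminal cells was 0.20 for mitosis and −0.31 for replication genes, beside −0.01 for all measured genes. Of the replication genes 16 of 20 and of the mitosis genes 9 of 24 were lower in hybrid cells. The share of all measured genes that were lower was not counted. None of those 16 replication genes was lower by the fold, and Ccne1 was 5.29-fold higher. Past the fold were the mitosis genes Cdc20, Cenpa and Mki67, higher in hybrid cells by 2.89-fold, 2.31-fold and 3.79-fold, and Aurka and Aurkb, lower (log2 ratios −1.33 and −1.27). With Ccne1 this made 4 of 46 genes higher, and with Ccnd1 (−1.54) 3 lower, where 6% and 4.19% of measured genes were. Both counts were not far above those shares. With the top cell of each gene dropped, the same 4 were higher and 2 of the 3 lower, while Aurka, at −0.97, no longer passed the fold. The share of all measured genes past the fold was not counted after that drop.

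Lists of other genes of the same processes moved less. In ablated luminal against WT luminal cells 11 of 30 other replication genes and 11 of 40 other mitosis genes were higher past the fold and 0 lower, with medians of 0.84 and 0.69, beside 15.3% and a median of 0.21 for all measured genes. In hybrid against ablated basal cells 8 of 30 and 16 of 40 were higher and 0 lower, with medians of 0.55 and 0.83, beside 16% and 0.14. Dtl, a factor that marks Cdt1 for degradation in S phase, had 36.2 CPM in ablated luminal against 0.436 CPM in WT luminal cells, and 37.7 CPM in hybrid against 3.04 CPM in ablated basal cells. Some other mitosis genes were not low in WT basal cells, such as Pttg1, securin, at 156.5 CPM there and 52.7 CPM in ablated basal cells.

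The plate also held 1 well of many cells for each group, whose number of cells the labels do not give. In such wells fewer cells of a kind and less RNA per cell cannot be told apart. Replication genes summed to 313 CPM in the WT basal, 361 CPM in the WT luminal, 370 CPM in the ablated basal, 668 CPM in the hybrid and 850 CPM in the ablated luminal well, the order of the single cells for the ablated groups. Mitosis genes summed to 0.354, 46.8, 5.72, 142.6 and 21.6 CPM in the same wells. The hybrid well was highest, as among single cells, but the ablated luminal well was below the WT luminal well.

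Those mitosis sums rested on few genes. In the WT luminal well only Top2a with 28 and Ube2c with 19 of 1005368 reads were present, and 22 of the 24 genes had no read. In the hybrid well 18 of 24 had none, and Cenpa (61 CPM), Cenpe (37.2 CPM) and Aurka (26.7 CPM) made up most of the sum. Cdk1 and Mki67 had no more than 4 reads in any of the 5 wells. In the ablated luminal well Mcm6 (188.5 CPM), Dut (154.6 CPM), Tyms (68.6 CPM) and Cdc45 (64.4 CPM) were high, while Rrm1 was highest in the WT basal well at 130.0 CPM. The 5 negative control wells held 3 to 12 reads of the 46 genes each, and 0 or 1 of the mitosis genes.

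**Figure D5:**
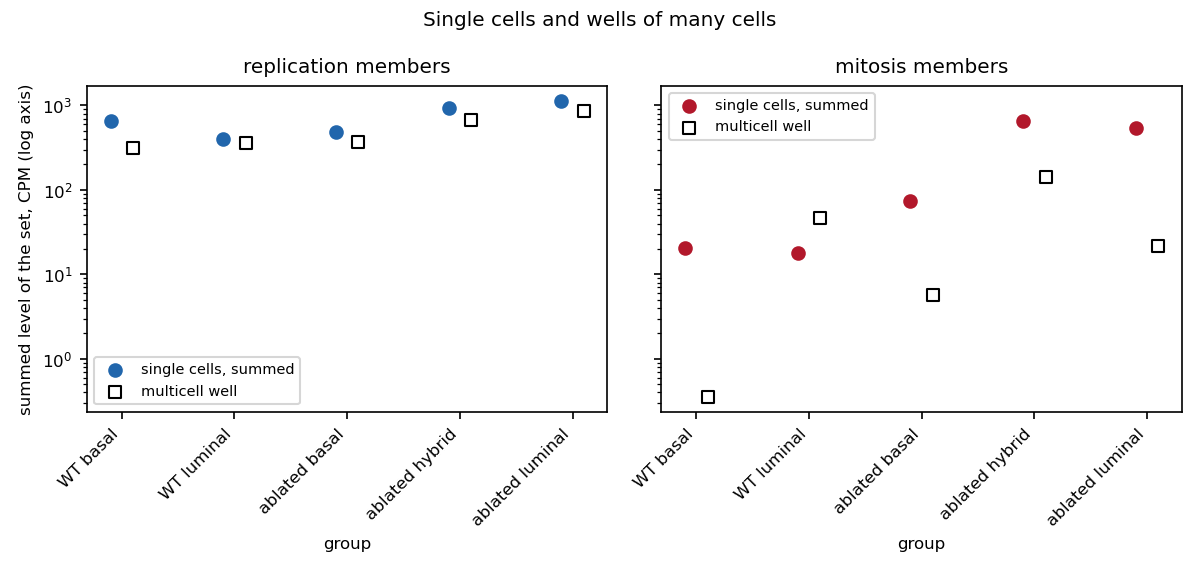
Summed level in CPM, on a log axis, of the 20 replication genes (left) and 24 mitosis genes (right) in single cells (filled circles) and in the well of many cells of each group (open squares). The replication sums are lower in the well than in single cells in all 5 groups, most so in WT basal (313 against 649.4 CPM), while the mitosis sums of the wells are lower than those of the single cells in every group except WT luminal.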

How the data were processed

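Smart-seq2 was run on 1 plate of 384 wells. The values deposited by the authors are raw counts of reads for every gene in every well, without normalization. Per the submitters' processing notes the tools were HTSeq 0.6.0, STAR 2.5.2b, cutadapt 1.13 and Seurat, with the GRCm38 build. Their roles and the annotation are not given in the sources read for this work. Gene symbols came from GENCODE on GRCm38, which named 49326 of the 49585 gene identifiers. Counting without strand leaves overlapping genes unresolved, and 92 spike-in sequences with 11 reads were not used.

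Groups follow the cell type and treatment labels. Of 374 single-cell wells 319 were kept and 55 left out. A kept well had 100000 reads in genes or more, 1000 genes or more and a mitochondrial share up to 20%. The 5 wells of many cells and 5 negative control wells were kept apart. Doublets were not called. Kept cells of a group held 46165993 to 95990962 reads together, so that 3 reads correspond to 0.0313 to 0.0650 CPM.

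Levels were reads summed over the kept cells of a group as CPM, with exact Poisson intervals. Ratios added 10 CPM, and measured genes were those whose mean over the groups reached 5 CPM. Shares of cells were counted after thinning each cell to 100000 reads, with detection at 5 reads, so that no cell was too shallow. Alternatives changed 1 choice at a time, among them TMM factors from edgeR 4.0.16. Scripts ran in Python 3.11.15 with numpy 2.4.6, pandas 2.3.3 and scipy 1.17.1 and were tested on simulated data. The genes, lists and tests were chosen with earlier results of these data known. The genes with full values are the 2 of each role with the highest level in any group, with Mki67, Top2a, Pcna and Ccnd1 added. Promoters were printed for at most 6 of these that hold a searched word, in order of level. Genes of other lists were named by the 4 largest log2 ratios of a list in a comparison. Ccnd3, Cdk4 and the erythroid markers were named outside that rule. Krt14, Krt18, Acta2 and Krt8 were named as lineage marks.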

Additional observations from a re-analysis of the deposited data

Results flagged for a closer look

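Mcm3 was the gene whose ratio of ablated to WT cells pointed one way past the fold in basal and the other way in luminal cells. In basal cells its level was 35 CPM in WT and 5.05 CPM in ablated cells, a log2 ratio of −1.58 after adding 10 CPM. In luminal cells it was 8.92 CPM in WT and 74.4 CPM in ablated cells, a log2 ratio of 2.16. The ratios differ by 3.74 (log2). The difference was not tested, since each group counts as 1 sample. In WT basal cells 99.1% of the Mcm3 reads came from 1 cell, and in ablated basal cells 98.0%. With the cell that held most Mcm3 reads dropped from each group, the log2 ratio was −0.03 in basal and 2.54 in luminal cells, so the opposite direction past the fold was gone.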

How the results depend on the processing

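Of 130 median ratios of the gene sets under an alternative, 121 moved by less than the spread used as the limit and 9 by more, and of 110 shares of cells 97 stayed within the interval of the reported share and 13 did not. None of the medians past the fold changed sign, and a change of sign was not checked for the smaller ones. With 1 CPM added in place of 10, the medians of ablated luminal against WT luminal cells were 3.56 (mitosis) and 2.45 (replication), and those of hybrid against ablated basal cells 3.58 and 1.93. Across the wells of many cells the mitosis median was 0.00 in both comparisons. With equal weight per cell the replication median of hybrid against luminal cells was −0.43. Without the tenth of cells with most genes, chosen after seeing the data, it was −0.46, and the mitosis median of hybrid against ablated basal cells was 1.04. The share of cells with the replication set depended on the minimum. In hybrid and ablated luminal cells it was 45.9% and 50% with detection at 1 read, 7.06% and 13.2% at 20 reads, 41.2% and 46.1% with at least 3 genes, and 9.41% and 14.5% with at least 10 of 20 (and 12 of 24 mitosis) genes. With at least 3 genes it was 18.6% in WT luminal and 9.86% in ablated basal cells. In ablated basal cells it was 0% at 20 reads, with at least 10 genes, and without the tenth of cells with most genes. No paired analysis was possible because the labels name no animal and no result comes from a test. A gene with no read in a WT group may lie under the depth of 43 or 44 cells, and a share of 0 allows up to 6.98% or 6.82%.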

Other observations

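Regulators of G1 and of leaving the cycle, a list of 26 genes outside the 46, had median ratios near those of all measured genes. Their median log2 ratio was 0.19 in ablated luminal against WT luminal cells, beside 0.21 for all, with 6 higher and 1 lower past the fold where 15.3% and 6.61% of measured genes were. In hybrid against ablated basal cells it was 0.18 beside 0.14, with 3 higher and 3 lower where 16% and 8.87% were. Cdkn1a, the inhibitor p21, had 1665.7 CPM in WT basal, 475.7 CPM in WT luminal, 443.4 CPM in ablated basal, 416.1 CPM in hybrid and 454.9 CPM in ablated luminal cells, with WT basal cells highest. Rb1, the retinoblastoma protein that holds back E2F, had 60.6, 92.2, 4.56, 46.7 and 22.7 CPM in the same order, and only 1 WT basal cell detected it.

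Among the D-type cyclins and their kinases, Ccnd3 and Cdk4 had reads in all 5 groups. Ccnd3 had 67.7, 44.9, 39.5, 109 and 86.9 CPM and Cdk4 338.9, 284, 426, 544.6 and 591.2 CPM in the same order, both lower in the WT groups than in hybrid and ablated luminal cells. Ccnd2 had 73 CPM in WT basal, 191.7 CPM in ablated basal and 56.5 CPM in hybrid cells, but 0.281 CPM in WT luminal and 0.0690 CPM in ablated luminal cells, where no cell detected it. Cdk6 had 0.412 CPM in WT basal and 47.8 CPM in ablated basal cells, 91.7 CPM in WT luminal, 94.5 CPM in hybrid and 221.4 CPM in ablated luminal cells. The inhibitor Cdkn2b was highest in ablated luminal cells at 69.7 CPM, where 18 of 76 cells detected it, against 18.3 CPM in WT luminal cells. Hybrid cells thus had both Ccnd1 and Ccnd2, at 79.1 and 56.5 CPM, each between the basal and luminal groups of ablated glands for Ccnd1 (36.5 and 249.7 CPM) and for Ccnd2 (191.7 and 0.0690 CPM).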
